A study of Mus musculus with 6 samples.

Results

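Tmem119, Olfml3, Selplg, Slc2a5, Aif1, Golm1, Sparc, Crybb1 and Cd81 are marker genes of homeostatic microglia, that is, of microglia in the undisturbed brain. They were chosen by symbol as homeostatic markers that are neither purinergic receptors nor transcription factors, and all 9 were found among the 38924 genes of each count table. RNA-seq was carried out on microglia of female WT mice of strain C57BL/6, which carry no engineered allele and for which no treatment is given, 3 mice at 5 weeks and 3 at 24 weeks of age. Each library came from 1 whole brain, with the meninges taken off by hand myelin depleted and the cells held by magnetic beads that bind CD11b, a surface protein that microglia share with other macrophages, monocytes and neutrophils. By the study's methods the isolated cells are mostly but not purely microglia. Libraries of Het mice, the study's heterozygous mutants, were not analysed here. The question put to the 9 genes was what level each has in WT microglia and whether that level differs between the ages.

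Microglia are macrophages that live in brain tissue. In the undisturbed mouse brain they express a set of genes that sets them apart from other macrophages, and several of these genes are known to lose expression when microglia respond to injury, disease or culture. The 9 genes encode proteins of unlike kinds. Sparc is a secreted collagen-binding glycoprotein of the extracellular matrix, and Olfml3 is a secreted protein with an olfactomedin domain. Tmem119 is a transmembrane protein widely used to tell microglia from other macrophages, Selplg is PSGL-1, a leukocyte ligand of the selectins, Slc2a5 is the fructose transporter GLUT5, and Cd81 is a tetraspanin, a membrane protein that organizes other membrane proteins. Aif1 is the calcium- and actin-binding protein Iba1, Golm1 is a membrane protein of the Golgi apparatus, and Crybb1 is a beta-crystallin, best known as a structural protein of the eye lens.

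Between 10410625 and 13554336 read pairs were counted on genes in each 24-week library, and between 23198065 and 46434788 in each 5-week library. Each age had its own sequencing lane, so that the effects of age and of lane cannot be told apart here. One library stood apart in the RNA of the inactive X chromosome, Xist, with 78 counts in 24-week replicate 3 against 31677 to 59021 in the other 5, although all the mice are given as female. Among the 5-week libraries, replicate 3 departed from the others along GC content. Relative to the mean of its age, its median log2 CPM (CPM being gene counts set to a common library size with TMM factors) was -0.23 in the lowest of 5 groups of genes by GC content and 0.27 in the highest. These medians were 0.10 and -0.12 in replicate 1 and 0.13 and -0.14 in replicate 2, whereas in all 5 groups the 24-week libraries lay between -0.048 and 0.041.

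All 9 marker genes were expressed in every library, with 890 to 109634 raw counts per gene and library, and together they took 0.882 to 1.07% of gene counts at 5 weeks and 0.757 to 0.840% at 24 weeks. Sparc was the 38th most abundant of the 16157 genes tested by average CPM, followed by Selplg (53rd), Tmem119 (55th), Olfml3 (86th), Cd81 (104th) and Golm1 (114th). Slc2a5 (414th), Aif1 (1081st) and Crybb1 (1849th) were lower. The library low in Xist had a summed marker level of 7881 normalized CPM against 8308 and 7137 in the other 24-week libraries.

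**Figure D1:**
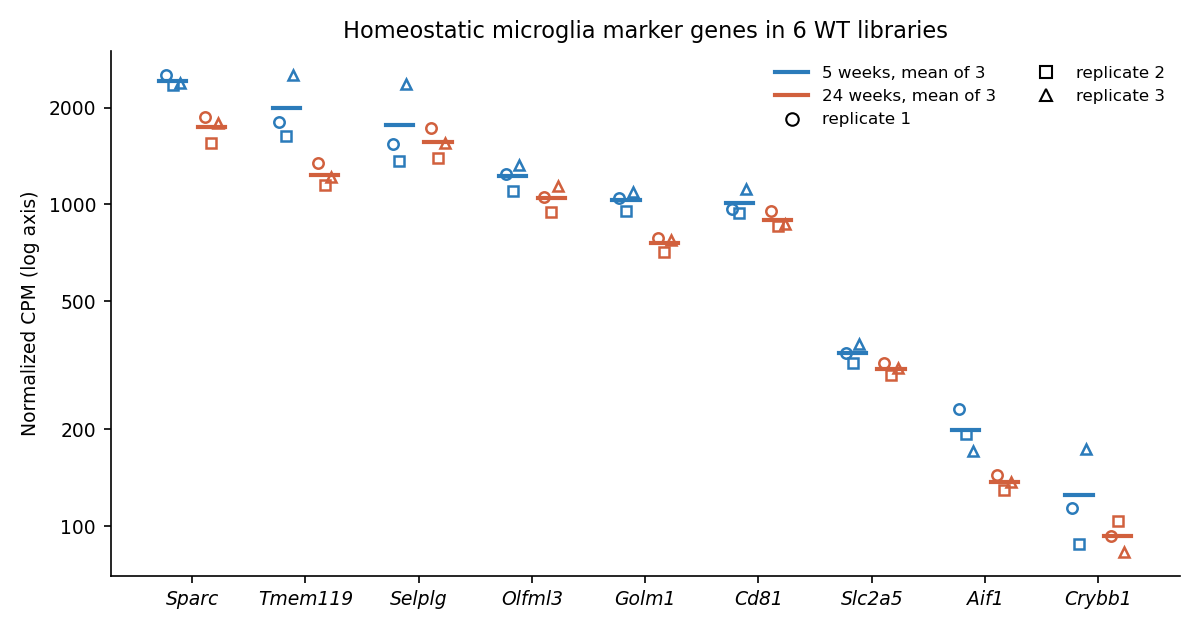
Normalized CPM (log axis) of each marker gene in each WT library, with circles, squares and triangles for replicates 1, 2 and 3 and bars for the mean of 3 libraries (blue, 5 weeks; orange, 24 weeks). The ages do not overlap for Sparc, Tmem119, Golm1, Slc2a5 and Aif1, and 5-week replicate 3 lies far above the other 5-week libraries for Tmem119, Selplg and Crybb1.

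Of the 9 genes, 4 were lower at 24 weeks, 0 were higher and 5 did not pass, by the quasi-likelihood test of edgeR at a Benjamini-Hochberg adjusted p under 0.05. DESeq2 and limma-voom gave the same counts. The 4 that fell were Tmem119, Aif1, Sparc and Golm1. Over all genes tested, 13.3% were lower and 15.5% higher (28.8% in either direction). Among the 5494 genes whose average log2 CPM reached 5, these shares were 16.4% and 18.1% (34.4% in either direction). The log2 fold change, given here as 24 weeks minus 5 weeks, was negative for all 9 markers with a median of -0.42, while the median of all genes tested was 0.00. For 5 of the markers no library of one age reached into the range of the other, as for 45.1% of all genes tested. With 1 library left out, the number of lower markers was 4 without replicate 3 of either age, 5 without 5-week replicate 2, 3 without 24-week replicate 1, 2 without 5-week replicate 1 and 1 (Aif1) without 24-week replicate 2. In bulk RNA, fewer microglia in a sample and less of an RNA per microglial cell cannot be told apart.

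**Figure D2:**
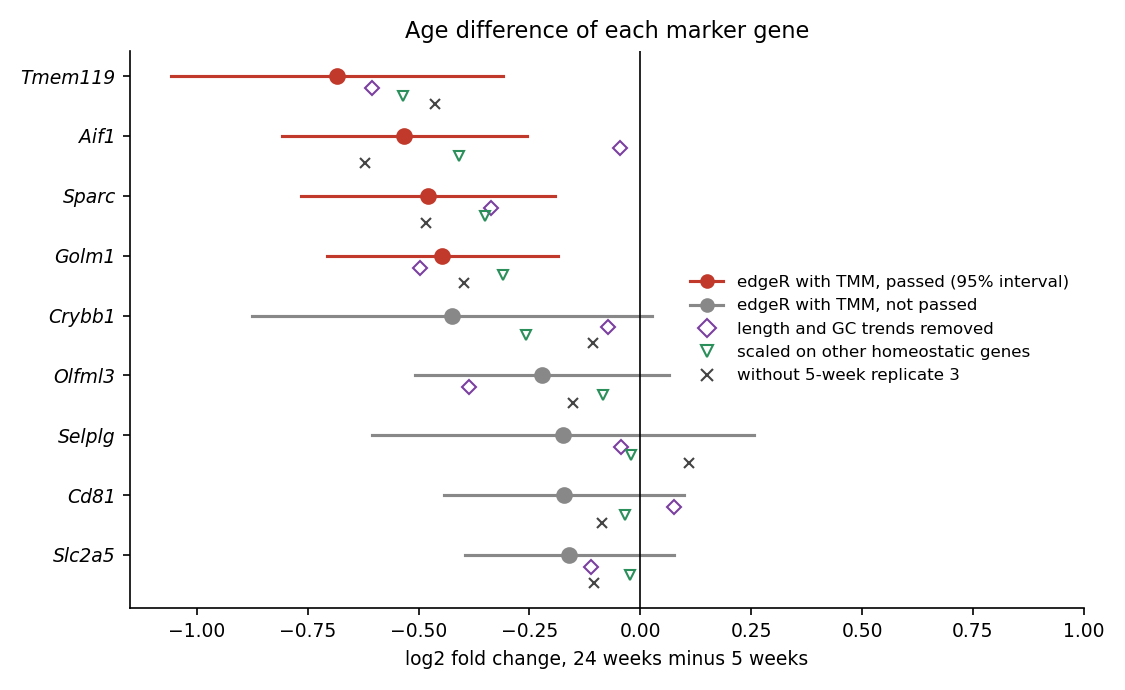
Log2 fold change of each marker gene, 24 weeks minus 5 weeks, with 95% intervals from edgeR's quasi-likelihood fit (red, passed; grey, did not pass) and the same value with length and GC trends removed, scaled on 36 other homeostatic genes, or without 5-week replicate 3. Under these 3 settings Tmem119, Sparc and Golm1 lie between -0.60 and -0.31, Aif1 moves to -0.046 with the trends removed, and Selplg is at 0.11 without 5-week replicate 3.

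The promoters of 3 markers that fell, and of the marker with the smallest difference, are shown so that they can be read side by side. They are RefSeq sequences of GRCm38.p6 from 250 bases before to 50 bases after each gene's start, written 5′ to 3′ on the gene's own strand. The start is that of RefSeq, which for Sparc lies inside the gene as annotated by GENCODE, downstream of the outermost start there. RefSeq entries matched 7 of the 9 markers, all but Tmem119 and Selplg. Shown are Aif1 (chr17:35176003-35176302, minus strand), Golm1 (chr13:59675735-59676034, minus strand), Sparc (chr11:55420031-55420330, minus strand) and Slc2a5 (chr4:150119094-150119393, plus strand), the first 3 chosen after their values were seen. Capitals mark matches on either strand to any of 4 motifs. The first, GAGGAA, is one sequence bound by ETS factors such as the myeloid factor PU.1, and other ETS sites were not searched for. The others are the AP-1 motif TGANTCA, which is bound by Fos and Jun proteins, the E-box CACGTG of basic helix-loop-helix factors, and the TATA box spelled TATAAA.
Aif1: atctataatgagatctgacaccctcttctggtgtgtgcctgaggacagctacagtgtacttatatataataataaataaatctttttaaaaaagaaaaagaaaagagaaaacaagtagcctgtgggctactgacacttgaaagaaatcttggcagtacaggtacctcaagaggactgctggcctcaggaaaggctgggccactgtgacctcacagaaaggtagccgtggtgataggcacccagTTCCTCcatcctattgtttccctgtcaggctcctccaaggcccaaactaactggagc
Golm1: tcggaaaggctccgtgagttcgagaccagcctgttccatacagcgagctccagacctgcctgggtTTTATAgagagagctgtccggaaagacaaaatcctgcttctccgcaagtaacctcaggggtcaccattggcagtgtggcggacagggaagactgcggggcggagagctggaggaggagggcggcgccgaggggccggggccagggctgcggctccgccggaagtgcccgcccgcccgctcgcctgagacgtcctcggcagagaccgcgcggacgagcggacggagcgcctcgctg
Sparc: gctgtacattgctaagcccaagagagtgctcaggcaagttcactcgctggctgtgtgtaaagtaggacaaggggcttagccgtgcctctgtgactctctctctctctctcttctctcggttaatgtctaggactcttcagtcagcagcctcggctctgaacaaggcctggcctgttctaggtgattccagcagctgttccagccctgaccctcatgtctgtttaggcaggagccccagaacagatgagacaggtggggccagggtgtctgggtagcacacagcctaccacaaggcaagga
Slc2a5: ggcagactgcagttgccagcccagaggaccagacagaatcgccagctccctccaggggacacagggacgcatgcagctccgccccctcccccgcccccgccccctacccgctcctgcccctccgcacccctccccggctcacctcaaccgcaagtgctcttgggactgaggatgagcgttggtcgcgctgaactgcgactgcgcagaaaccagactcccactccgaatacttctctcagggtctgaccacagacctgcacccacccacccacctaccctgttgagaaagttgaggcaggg

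Aif1 was the one marker promoter of 7 with GAGGAA, which 28.3% of 32851 RefSeq promoters of the same length hold. TATAAA was in the promoters of Crybb1, Cd81 and Golm1 and in 13.6% of all promoters. It was counted anywhere in the window and on either strand, and in Cd81 it lies after the start. In Golm1 it reads TTTATA on the strand shown, and GAGGAA in Aif1 reads TTCCTC. Neither TGANTCA (7.81% of all promoters) nor CACGTG (7.15%) was found in any of the 7, and Sparc, Slc2a5 and Olfml3 had no match to any of these 4 motifs. The GC content of the promoter was 45.0% in Aif1, 55.3% in Sparc, 65.3% in Slc2a5 and 67.0% in Golm1. A match or its absence describes letters in this window and not binding.

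Sparc (ENSMUSG00000018593, chromosome 11 of GRCm38 from 55394500 to 55423183, minus strand) had 2530.5, 2353 and 2380.2 normalized CPM in 5-week replicates 1, 2 and 3 and 1869, 1548 and 1796 in 24-week replicates 1, 2 and 3. Every 24-week library lay below every 5-week library, and 24-week replicate 2 was the lowest. The mean fell from 2421 ± 95.5 to 1738 ± 169 CPM (SD, n = 3 libraries), or by 0.48 on the log2 scale (SE 0.13, adjusted p = 0.0188). Without 5-week replicate 1 the log2 fold change was -0.46 and did not pass (adjusted p = 0.0738), nor did it without 24-week replicate 2 (-0.41, adjusted p = 0.0932). Scaled on the other homeostatic genes, Sparc passed narrowly (-0.35, adjusted p = 0.04995).

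The other secreted marker, Olfml3 (ENSMUSG00000027848, chromosome 3 from 103722222 to 103738001, minus strand), had 1244, 1097 and 1325 normalized CPM at 5 weeks and 1055, 947 and 1141 at 24 weeks. The ages overlapped, since 24-week replicate 3 was above 5-week replicate 2. Its log2 fold change of -0.22 (95% interval from -0.51 to 0.065) did not pass (adjusted p = 0.226). The longest annotated transcript of Olfml3 has 5465 bases, and genes whose longest transcript has that length tended to the opposite direction. The median log2 fold change was 0.20 in its group when genes were split into 10 by this length. With each library's trends on this length and GC content removed, Olfml3 was lower at 24 weeks (-0.39, adjusted p = 0.0277). Both values rest on the longest transcript, and which transcript the microglia express was not tested.

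Tmem119 (ENSMUSG00000054675, chromosome 5 from 113793729 to 113800516, minus strand) had the largest difference of the 9. It had 1799, 1637 and 2533 normalized CPM at 5 weeks and 1347, 1149.7 and 1219 at 24 weeks. All 5-week libraries were above all 24-week libraries, and 5-week replicate 3 was well above the other 5. The level fell from 1989.8 ± 477 to 1239 ± 100.2 (SD, n = 3), or by 37.7% in the fit (log2 fold change -0.68, SE 0.17, adjusted p = 0.0124). Tmem119 has a GC content of 59.1%, in the GC group where 5-week replicate 3 was shifted up, and without that library its log2 fold change was -0.46 (adjusted p = 0.00573). Leaving out 24-week replicate 2 ended the call (-0.64, adjusted p = 0.0567).

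Selplg (ENSMUSG00000048163, chromosome 5 from 113818536 to 113832644) lies next to Tmem119 on the same strand, 18019 bases away. Its values were 1538, 1369 and 2375 normalized CPM at 5 weeks and 1734, 1395 and 1553 at 24 weeks. The ages overlapped, and 5-week replicate 3 alone was above all other libraries. The log2 fold change was -0.17 (95% interval from -0.61 to 0.26, adjusted p = 0.537), and without 5-week replicate 3 it turned to 0.11 (adjusted p = 0.466). Selplg has a GC content of 49.8%, in the GC group where the median of 5-week replicate 3 was 0.040 above the mean of its age, while Selplg itself was 0.47 above.

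The neighbours Tmem119 and Selplg moved together from library to library within each age. Their deviations from the age means had a Pearson correlation of 0.999 over the 6 libraries, given as a description since the libraries share depth and composition. Both genes deviated most in 5-week replicate 3 (0.37 for Tmem119 and 0.47 for Selplg). Between Tmem119 and Cd81, which lie on different chromosomes, the correlation was 0.962, and between Tmem119 and Aif1 -0.48. Being neighbours is thus not needed for a high value here. The age differences of the neighbours were -0.68 and -0.17, and the gap between them was not itself tested.

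The fructose transporter gene Slc2a5 (ENSMUSG00000028976, chromosome 4 from 150119283 to 150144169, plus strand) had the smallest difference of the 9. It had 345, 322 and 367 normalized CPM at 5 weeks and 321, 295 and 309.6 at 24 weeks. The ages did not overlap, but only narrowly, and the replicates lay closer together than for any other marker, with a pooled SD within ages of 0.080 on the log2 scale. The log2 fold change was -0.16 (95% interval from -0.39 to 0.075, adjusted p = 0.287).

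Cd81 (ENSMUSG00000037706, chromosome 7 from 143052739 to 143067934, plus strand) had 969, 941 and 1115 normalized CPM at 5 weeks and 957, 859 and 868 at 24 weeks. Replicate 1 at 24 weeks was above replicate 2 at 5 weeks, so that the ages overlapped. The log2 fold change was -0.17 (95% interval from -0.44 to 0.098, adjusted p = 0.319), and with the trends on length and GC content removed it was 0.076 (adjusted p = 0.624).

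Aif1 (ENSMUSG00000024397, chromosome 17 from 35170991 to 35176068, minus strand), whose protein Iba1 is the usual immunostain for microglia, had 232, 193 and 171 normalized CPM at 5 weeks and 144, 129.8 and 137 at 24 weeks. The ages did not overlap, and Aif1 was the one marker that was lowest among 5-week libraries in replicate 3. The mean fell from 198 ± 30.9 to 137 ± 7.27 (SD, n = 3), or by 0.53 on the log2 scale (SE 0.13, adjusted p = 0.00953). It passed with each of the 6 libraries left out in turn (adjusted p from 0.000802 to 0.0487). Its promoter, printed with those of Golm1, Sparc and Slc2a5, was the least GC-rich of the 7. The longest transcript of Aif1, at 875 bases, lies in the shortest of the 10 length groups. There the median log2 fold change was -0.33 and 31.5% of genes were lower at 24 weeks. With the trends on length and GC content removed, the log2 fold change of Aif1 was -0.046 (adjusted p = 0.738), and scaled on the other homeostatic genes it was -0.41 (adjusted p = 0.0671).

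Golm1 (ENSMUSG00000021556, chromosome 13 from 59634626 to 59675811, minus strand) had 1049.9, 955 and 1089 normalized CPM at 5 weeks and 787, 710.5 and 774 at 24 weeks. The gap between the ages was wider than the range within either age. The mean fell from 1032 ± 69.0 to 757 ± 40.9 (SD, n = 3), or by 0.45 on the log2 scale (SE 0.12, adjusted p = 0.0165), and with the trends on length and GC content removed it was -0.50 (adjusted p = 0.00434). Left out in turn, 3 libraries each ended the call, namely 5-week replicate 1 (-0.44, adjusted p = 0.0606), 24-week replicate 1 (-0.48, adjusted p = 0.0522) and 24-week replicate 2 (-0.41, adjusted p = 0.0792). Its exons share 1297 bases with the gene Naa35 on the opposite strand, and pairs were counted by strand.

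Crybb1 (ENSMUSG00000029343, chromosome 5 from 112255815 to 112269585, plus strand) was the lowest of the 9 in CPM, with 114, 87.9 and 173 normalized CPM at 5 weeks and 93.1, 104 and 83.2 at 24 weeks. The ages overlapped: 5-week replicates 1 and 3 were above all 24-week libraries, while 5-week replicate 2 was below 24-week replicates 1 and 2. The log2 fold change of -0.42 was close to those of Golm1 and Sparc but did not pass (95% interval from -0.88 to 0.027, adjusted p = 0.145). It passed without 5-week replicate 2 (-0.64, adjusted p = 0.0253) and with no filter on low counts (-0.46, adjusted p = 0.0233). Without 5-week replicate 3 it was -0.11 (adjusted p = 0.536). Crybb1 has the highest GC content of the 9 at 61.8%. Like that of Aif1, its longest transcript is among the shortest of the 9, at 882 bases. With both trends removed, the log2 fold change of Crybb1 was -0.074 (adjusted p = 0.727).

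**Figure D3:**
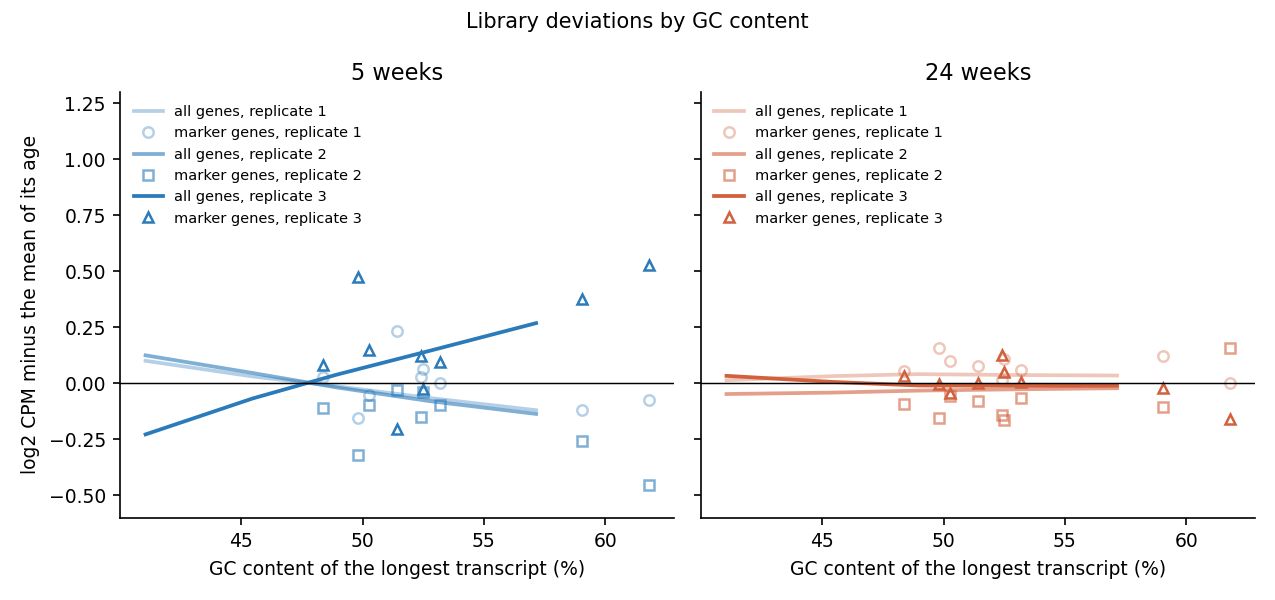
Deviation of log2 CPM from the mean of its age (y axis) against GC content of the longest transcript (x axis, %), with lines for the median of genes averaging a log2 CPM of 5 or more, split into 5 groups by GC content, and points for the 9 marker genes, for replicates 1, 2 and 3 of each age. The line of 5-week replicate 3 climbs from -0.23 to 0.27 while those of the 24-week libraries stay between -0.048 and 0.041, and Tmem119, Selplg and Crybb1 in 5-week replicate 3 are the highest points, at 0.37, 0.47 and 0.53.

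Most markers ranked the replicates alike. Within its age, 5-week replicate 3 was the highest library for 7 markers and 5-week replicate 2 the lowest for 8, and at 24 weeks replicate 2 was the lowest for 8. The coefficient of variation was larger at 5 weeks for 8 of the 9, with 34.9% for Crybb1, 30.6% for Selplg and 24.0% for Tmem119 against 11.01%, 10.9% and 8.08% at 24 weeks. Sparc was the exception, with 3.94% at 5 weeks and 9.70% at 24 weeks. The share of all genes with a larger coefficient at 5 weeks was not computed. The 5-week libraries also differed beyond the markers. Over 5314 protein-coding genes, deviations from the age mean had Spearman correlations with GC content of -0.63, -0.71 and 0.78 in 5-week replicates 1, 2 and 3. At 24 weeks these were 0.068, 0.11 and -0.16. Over both ages the SD within ages on the log2 scale had a median of 0.14 among the markers, as it did among the 5494 genes averaging 5 or more.

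Compared between genes as normalized CPM per kb of exon (all merged exons of a gene), Tmem119 was first and Sparc second in all 6 libraries. At 5 weeks the mean levels per kb were 859.5 for Tmem119, 639 for Sparc, 412 for Selplg, 350.3 for Cd81, 233 for Golm1, 198 for Olfml3, 129 for Aif1, 127 for Crybb1 and 101 for Slc2a5. Of the neighbours in this order, Selplg and Cd81, Aif1 and Crybb1, and Crybb1 and Slc2a5 overlapped between libraries. At 24 weeks the means were 535 for Tmem119, 459 for Sparc, 365 for Selplg, 311 for Cd81, 171 for Golm1, 170.1 for Olfml3, 94.8 for Crybb1, 90.7 for Slc2a5 and 89.5 for Aif1. There Selplg and Cd81, Golm1 and Olfml3, Crybb1 and Slc2a5, and Slc2a5 and Aif1 overlapped. The order depends on the length used. Per kb of the longest transcript, Sparc was first and Tmem119 second at 5 weeks (1053 and 888). At 24 weeks Sparc (755), Selplg (674) and Cd81 (557) were all above Tmem119 (553) in mean level.

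**Figure D4:**
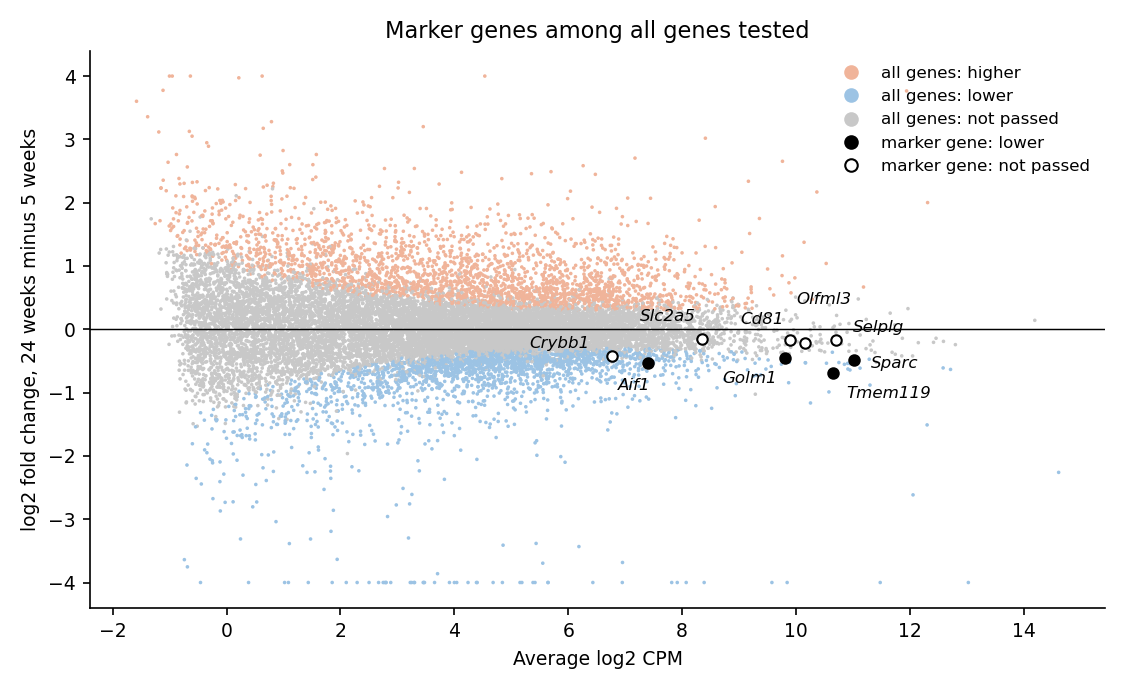
Log2 fold change, 24 weeks minus 5 weeks, against average log2 CPM for the 16157 genes tested, with the 9 marker genes as large points (filled, lower; open, did not pass). The y axis ends at 4 in either direction, and 5 genes above and 47 below it are drawn at its ends. The markers lie to the right, among abundant genes, and all below 0.

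The pattern of Tmem119 over the 6 libraries was most like that of C1qb, which encodes a chain of the complement protein C1q and is itself abundant in microglia. By the distance between log2 CPM centred on the mean of the libraries, C1qb was the nearest of 5485 other genes averaging 5 or more (0.113), and its log2 fold change was -0.64 (adjusted p = 0.0110). Next came Fermt3, the kindlin of blood cells (-0.63), Ogfr, the opioid growth factor receptor (-0.67), Rab1b, a small GTPase of transport from the endoplasmic reticulum to the Golgi (-0.61), and Abtb1 (-0.72). All 5 were lower at 24 weeks, which the choice by likeness to Tmem119 favours.

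Other genes of the homeostatic set were mixed in direction. Of 36 such genes, 11 were lower, 5 higher and 20 did not pass, with a median log2 fold change of -0.23. Over all genes tested, 13.3% were lower and 15.5% higher. Over the alternatives in scaling, test, filter and libraries, 3 to 14 were lower and 2 to 9 higher, with medians from -0.29 to -0.088. Sall1, a transcription factor that maintains microglial identity in mice, rose from 494 to 955 normalized CPM (log2 fold change 0.95, SE 0.15, adjusted p = 0.00123). The transcription factor gene Bhlhe41 rose as well (0.50, SE 0.10, adjusted p = 0.00324). Trem2, a lipid-sensing receptor of microglia, fell from 691 to 443 normalized CPM (-0.64, SE 0.14, adjusted p = 0.00583), and so did Ltc4s, the leukotriene C4 synthase gene (-0.75, SE 0.14, adjusted p = 0.00293). The summed level of the 9 markers was 13.4 to 14.5% of that of these 36 genes at 5 weeks and 12.97 to 13.4% at 24 weeks. With library sizes scaled on the 36 genes, the median log2 fold change of all genes was 0.14 in place of 0.00, and Tmem119 (-0.53, adjusted p = 0.0121), Golm1 (-0.31, adjusted p = 0.0447) and Sparc still passed.

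Of 19 genes that microglia are known to raise in ageing and disease, 3 were higher and 3 lower, with a median of -0.0043. These counts are near the shares over all genes tested (15.5% higher, 13.3% lower). Apoe, which carries lipids, fell from 2032 to 1023 normalized CPM (-0.99, SE 0.13, adjusted p = 0.000310), and the chemokine gene Ccl6 fell too (-0.49, adjusted p = 0.00971). Fth1, the heavy chain of ferritin, rose (0.64, SE 0.14, adjusted p = 0.00712), and so did the receptor kinase gene Axl (0.48, adjusted p = 0.0119).

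The relatives of the markers were measured beside them. Over all genes tested, 15.5% were higher and 13.3% lower, so a few calls in a short list are not particular to that list. Of 12 tetraspanins other than Cd81, 5 were lower and 0 higher (median -0.33). Tspan4 fell by 0.84 on the log2 scale (adjusted p = 0.000956) and the leukocyte tetraspanin Cd53 from 785 to 476 normalized CPM (-0.72, adjusted p = 0.00230), whereas Cd9, close to Cd81 in the family, was at -0.22 and did not pass (adjusted p = 0.213). Over the alternatives in scaling, test and libraries, 4 to 6 tetraspanins were lower and 0 to 2 higher. The 5 tested partners of Cd81 in the membrane did not pass, among them Igsf8 (-0.19) and Ptgfrn (0.20), and their smallest adjusted p was 0.164, for Ifitm3.

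Of 10 genes of sugar transport and fructose use, 1 was higher and 2 were lower, near the shares over all genes tested (15.5% and 13.3%). Khk, the ketohexokinase that phosphorylates fructose once it is in the cell, fell from 40.0 to 19.9 normalized CPM (-1.01, SE 0.13, adjusted p = 0.000294). The glucose transporter gene Slc2a1 rose (0.49, adjusted p = 0.0129) and Slc2a3 fell (-0.54, adjusted p = 0.0463).

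In the family of Sparc, Spock2, a testican of the matrix, rose from 67.1 to 161 normalized CPM (1.26, SE 0.11, adjusted p = 3.91e-05), and Sparcl1, the nearest relative of Sparc and a product of astrocytes and vessels, fell from 184 to 117 (-0.65, adjusted p = 0.00703), while the other 5 of 7 did not pass. Among 8 olfactomedin genes, Olfml2a rose from a low level of 5.47 to 13.7 normalized CPM (1.32, adjusted p = 0.000200) and 7 did not pass.

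The crystallin gene Cryba4 lies 3296 bases from Crybb1 on the opposite strand, the pair facing away from each other. It was lower at 24 weeks, with 25.9 normalized CPM at 5 weeks and 15.7 at 24 weeks (-0.72, SE 0.16, adjusted p = 0.00755), while the small heat shock protein gene Cryab rose (0.73, adjusted p = 0.00829). Of 9 genes whose products modify or bind PSGL-1, Tpst2, a tyrosylprotein sulfotransferase, was lower (-0.45, adjusted p = 0.0277) and 8 did not pass.

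Of 6 genes of actin remodelling close to Aif1, Coro1a, an actin-binding coronin, fell from 392.1 to 232 normalized CPM (-0.76, SE 0.11, adjusted p = 0.000802). Rac1, a GTPase of membrane ruffling, rose (0.43, adjusted p = 0.0162), as did Aif1l, the close homologue of Aif1 (1.11, adjusted p = 0.00365), although at 3.20 and 6.85 normalized CPM. Of 5 Golgi proteins beside Golm1, Golgb1 was higher (0.32, adjusted p = 0.0341), Golga5 lower (-0.31, adjusted p = 0.0468), and 3 did not pass.

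Markers of other cells moved with age in the same libraries. For comparison, 15.5% of all genes tested were higher and 13.3% lower. Endothelial genes were higher at 24 weeks in 11 of 14 and lower in 0, with summed levels of 333 to 397 normalized CPM at 5 weeks and 719 to 767 at 24 weeks. The vascular receptor Flt1 rose from 50.9 to 214 (2.07, adjusted p = 8.09e-07). Mural cell genes were higher in 7 of 10 (161 to 195, then 312 to 347 summed). Sparc, which vessels are also known to express, moved in the opposite direction to both lists. The part of vessel cells in the level of Sparc was not tested.

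Genes of border-associated macrophages, which also express Aif1, were lower in 7 of 9 and higher in 0. For this list and those below, the shares over all genes tested were 13.3% lower and 15.5% higher. The border-associated macrophage genes had sums of 1039.6 to 1374 normalized CPM at 5 weeks and 535 to 645 at 24 weeks. Their median log2 fold change was -1.07. Cd163, the scavenger receptor for haemoglobin, fell from 155 to 72.4 (-1.09, adjusted p = 0.000170). Astrocyte genes were lower in 5 of 10 and higher in 0 (486 to 679, then 388 to 449 summed). Oligodendrocyte genes were lower in 4 of 9, but their sums overlapped (1763 to 3002, then 1079.7 to 2940.2). Genes of choroid plexus and ependyma were high at both ages (7715 to 11949, then 8040 to 9981 summed, mostly Ttr and Enpp2). Of 9 tested, 1 was higher and 1 lower, near the shares over all genes tested (15.5% and 13.3%). Neutrophil and monocyte genes overlapped in sum (137 to 310, then 94.6 to 232), and Cd3e of T cells had 0 to 2 counts per library (these 3 genes are named after their values were seen). No marker of endothelial cells, mural cells, border-associated macrophages or astrocytes was at 0 in any library. The part of these cells in the levels of the 9 markers was not tested.

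**Figure D5:**
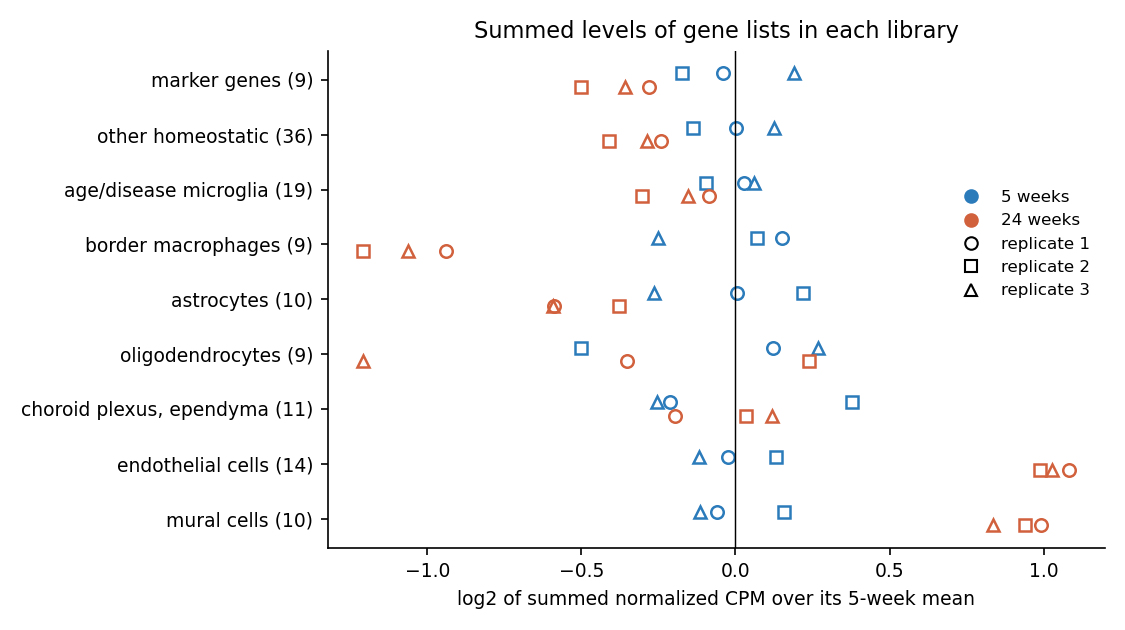
Log2 of the summed normalized CPM of each gene list in each WT library over the list's 5-week mean, with the number of genes in parentheses (blue, 5 weeks; orange, 24 weeks; circles, squares and triangles for replicates 1, 2 and 3). The summed level of the marker genes lay between 8955 and 11529 at 5 weeks and between 7137 and 8308 at 24 weeks, and the 24-week libraries lie well to the right for the endothelial and mural lists and well to the left for border-associated macrophages.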

How the data were processed

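Microglial RNA of 6 WT mice, 3 per age, was sequenced as 101-base strand-specific read pairs, 1 library per mouse. The deposited values are raw counts, which the authors made by trimming reads with trim_galore, aligning them to GRCm38 with TopHat2 2.0.13 and counting pairs by strand on the exons of each Ensembl gene with HTSeq 0.6.1. DESeq2 1.6.3 was used by the authors for Het against WT. The 5 rows that name no gene were left out. Pairs on no exon, of ambiguous gene or not uniquely placed were together 60.6 to 65.8% of the counts of genes and these pairs. Pairs not uniquely placed were 32.7 to 35.5% of the same counts at 5 weeks and 22.5 to 23.5% at 24 weeks. Pairs on no exon were 40.0 to 41.8% of uniquely placed pairs at 5 weeks and 48.7 to 54.9% at 24 weeks.

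The age comparison used edgeR 4.0.16 under R 4.3.3 (TMM, default filter on low counts, quasi-likelihood test, Benjamini-Hochberg over 16157 genes, threshold 0.05), a script tested on simulated data. Standard errors are the log2 fold change over the square root of F. No pairing of the libraries is given, and the p-values set the difference between ages against the spread between 3 mice per age. That spread holds no variation between lanes, since each age had its own lane. Alternatives were DESeq2 size factors, total counts, scaling on 36 other homeostatic genes, protein-coding genes alone, DESeq2 1.42.0, limma-voom (limma 3.58.1), no filter, at least 50 counts in every library, the replicate number as a block, offsets removing trends on transcript length and GC content, thinned 5-week libraries and each library left out. An alternative without Rn7sk, Rmrp, Rpph1 and mitochondrial genes was chosen after seeing the data.

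Positions, lengths and GC content came from GENCODE mouse release 21, which matched 37607 of 38924 identifiers. Transcript length and GC content are those of the longest transcript of each gene. The markers and the 24 other gene lists, of whose 258 entries 254 were matched, were chosen with earlier results of these data known. Named were all markers, at most 4 genes per list with the smallest p, any tested relative of a marker, and the 5 genes nearest to Tmem119. Promoters were planned for Tmem119 and the markers with the highest and lowest log2 fold change. Intervals cover 95%.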

Additional observations from a re-analysis of the deposited data

How the results depend on the processing

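Over 18 alternatives, 162 comparisons of a marker's log2 fold change with its reported value were made, of which 149 kept direction and call, 8 lost a call, 3 gained one and 2 turned direction. The turns were Selplg without 5-week replicate 3 (0.11, against -0.34 at the other end of the range over libraries left out) and Cd81 with length and GC trends removed (0.076), neither passing. Calls lost were Tmem119 without 24-week replicate 2 (-0.64), Aif1 scaled on the other homeostatic genes (-0.41) and with the trends removed (-0.046), Golm1 without 5-week replicate 1, 24-week replicate 1 or 24-week replicate 2 (-0.44, -0.48 and -0.41), and Sparc without 5-week replicate 1 or 24-week replicate 2 (-0.46 and -0.41). Calls gained were Olfml3 with the trends removed (-0.39) and Crybb1 with no filter (-0.46) or without 5-week replicate 2 (-0.64). The number of lower markers ran from 1 to 5 with 1 library left out and was 0 for higher markers throughout. Over all genes, leaving out 1 library gave 1638 to 3225 higher and 1181 to 2817 lower. Scaling on the other homeostatic genes gave 3033 higher and 1053 lower (74.2% of calls higher against 53.9% with TMM), and total counts alone 3229 and 1466 (68.8%), where the median log2 fold change of all genes was 0.14 and 0.10 against 0.00 with TMM. Apart from the alternatives named, the same 4 markers were lower. The cause of these moves was not tested.

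With the replicate block, the same 4 markers were lower, with 2424 genes higher and 1951 lower over all genes. Same-numbered libraries of the 2 ages deviated from their group means with correlations of 0.054, 0.037 and -0.081 across 5494 genes. For libraries of different numbers these ran from -0.14 to 0.070. With 3 libraries per age the values cannot decide whether the numbers mark a pairing. Limits are 3 mice per age, a lane for each age, lower depth at 24 weeks, and transcript lengths from a later annotation than the counts. The make-up of the reads is a further limit, with a larger share of pairs on no exon and a smaller share not uniquely placed in every 24-week library. Another is 24-week replicate 3, whose Xist count of 78 stands apart although all the mice are given as female. At 890 counts or more per marker and library, counting error is smaller than the spread between mice. It is not negligible for Slc2a5 and Aif1 at 24 weeks, whose coefficients of variation were 4.23% and 5.30%.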
